A study of Homo sapiens with 24 samples.

Results

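Total RNA of LNCaP cells that received miR-205 was compared with total RNA of LNCaP cells that received a scramble control. LNCaP is an established human prostate cancer cell line that depends on androgen signalling and has the character of luminal prostate epithelium. The 6 arrays compared were those the labels title as total RNA after miR-205 reconstitution, 3 arrays, and as total RNA after scramble reconstitution, 3 arrays, out of 24 arrays in all. Of the other 18 arrays, 12 hold RNA bound to the Argonaute protein AGO2, from each of the 4 transfections, and 6 hold total RNA of cells given miR-130a or miR-203. Both groups carry 2.5 µg of plasmid DNA delivered by nucleofection, an electroporation method, and the labels name no other agent, so plasmid and electroporation are common to the cells compared. Each array, an Affymetrix oligonucleotide array of human genes, received 2 µg of RNA. The promoter on the plasmids and the time between transfection and harvest are not given in the sources used here, and the level of miR-205 itself was not analysed here. The labels call the arrays biological replicates and name no separate cultures, so each p-value measures the spread between arrays. For changes in total RNA this spread was estimated over all 12 total RNA arrays, those of miR-130a and miR-203 included.

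MicroRNAs are short RNAs that an Argonaute protein loads and uses as a guide. Pairing between the seed of the microRNA and a transcript lowers the stability or the translation of that transcript, and a fall in total RNA can also lie downstream of such a direct effect. miR-205 is known from epithelia: it is abundant in basal cells of the prostate, low in many prostate cancers, and best known for repressing ZEB1 and ZEB2, regulators of the epithelial to mesenchymal transition. The study reconstituted it to look for transcripts it binds, and total RNA shows the state of all transcripts in the same cells.

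The hairpin that gives rise to miR-205 lies on chromosome 1, chr1:209432133-209432242 on the plus strand of GRCh38.p14 (RefSeq), and yields a mature strand from either arm. The labels do not say which arm is meant, so both are shown, with the seed (bases 2 to 8) in capitals. In the hairpin the capitals mark the mature strands.

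hsa-miR-205-5p: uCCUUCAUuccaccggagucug

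hsa-miR-205-3p: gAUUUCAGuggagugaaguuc

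Hairpin: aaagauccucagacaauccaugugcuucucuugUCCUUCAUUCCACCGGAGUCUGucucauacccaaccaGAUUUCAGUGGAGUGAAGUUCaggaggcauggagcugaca

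The seeds of the arms differ, so the arms would recognise different sites. The annotation used here holds no transcript sequences, and matches to these seeds were not searched.

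All values below are the deposited log2 expression values of 1 probe set per gene, the probe set with the highest mean over the 24 arrays, and 6782 genes passed the filter on signal. The 6 arrays share the same lowest value, 2.347327, and so appear to come from the same normalization run. Pearson's correlation over these genes was 0.9914 to 0.9950 between arrays of a group and 0.9761 to 0.9830 between arrays of different groups. Of the 6 arrays, scramble replicate 1 read highest on the control probe sets given next. For 18S ribosomal RNA it read 4.33, where the other scramble arrays read 2.83 and 3.05 and the miR-205 arrays 3.45 to 3.67 (log2). Its difference between 3 prime and 5 prime probe sets of GAPDH was 0.99, against 0.64 to 0.81 on the remaining 5 arrays, and counts without this array are given beside the main groups of genes below. All 8 luminal markers on the array lay above the floor on every array, with a summed linear signal of 7367 to 8167 after miR-205 and 6094 to 6519 after scramble. All 6 leukocyte markers were within 0.05 of the floor on the 6 arrays, as were 4 of 5 basal, 4 of 5 endothelial and 5 of 7 fibroblast markers, and the neuroendocrine markers other than ENO2 were at most 2.47. In RNA from whole cultures, fewer cells of a kind and less RNA per cell cannot be told apart.

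After miR-205, 686 genes rose and 905 fell, which is 10.1% and 13.3% of the 6782 genes tested. A change is the difference of the group means on the log2 scale with its standard error (n = 3 and 3 arrays). A gene rose or fell where limma's Benjamini-Hochberg adjusted p over the 6782 genes was under 0.05. The median change was 0.49 among genes that rose, -0.55 among genes that fell and -0.01 over all genes, and the median standard deviation within a group was 0.12 after miR-205 and 0.13 after scramble. Falls were larger than rises: 153 genes (2.26%) fell and 33 (0.487%) rose by at least 2-fold. Genes whose 3 and 3 arrays did not overlap made up 37.3% of all genes tested (17.3% higher and 20.1% lower after miR-205). Of the 153 genes that fell by at least 2-fold, 59 (38.6%) belong to the 5 lists of DNA replication and mitosis genes described next, and 13 belong to the list of ATF4 and amino acid response genes. Without scramble replicate 1, 705 genes rose and 778 fell.

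**Figure D1:**
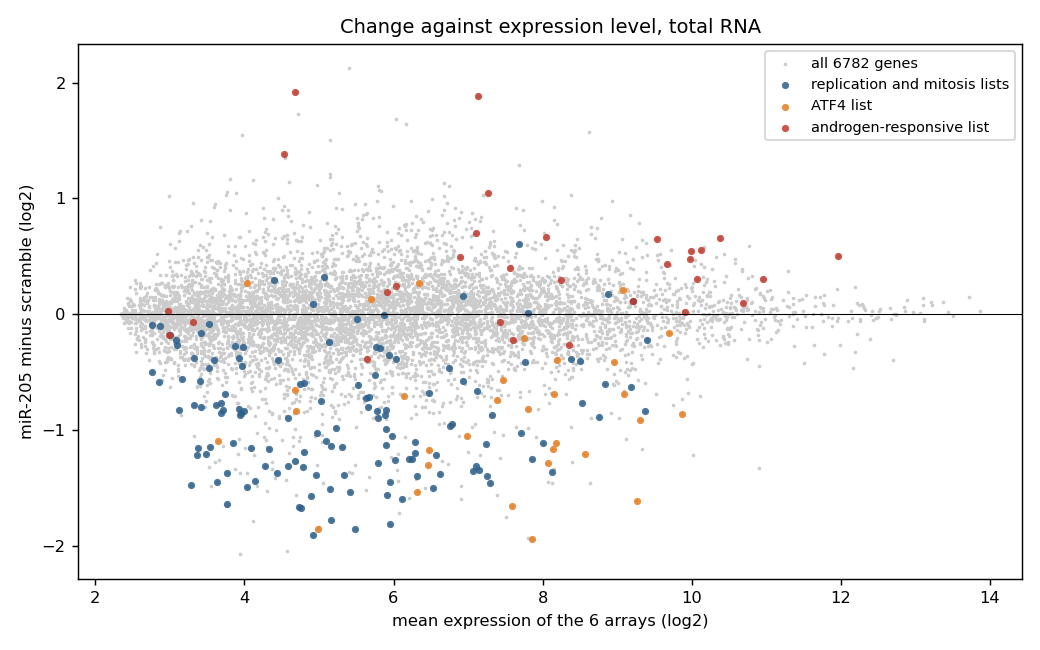
Each point is 1 of the 6782 genes, with the mean expression of the 6 arrays (log2) on the x axis and the change, miR-205 minus scramble in total RNA (log2), on the y axis. Genes of the replication and mitosis lists (blue) and of the ATF4 list (orange) lie mostly below 0, and 17 of 30 androgen-responsive genes (red) rose; the largest rise is 2.13 and the largest fall -2.08.

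Genes of DNA replication fell together. Among 46 replication genes, 31 fell, 2 rose and the median change was -0.78, against 13.3% falling and a median of -0.01 over all genes. The MCM2 to MCM7 proteins form the ring-shaped helicase that is loaded on origins before S phase and opens the DNA at the fork, and transcripts of all 6 fell, by 0.98 to 1.78. MCM5 stood at 3.90, 4.54 and 4.39 after miR-205 and 6.13, 6.23 and 5.80 after scramble. The miR-205 arrays all lay below the scramble arrays, and the fitted change was -1.78 ± 0.17 (3.43-fold, adjusted p = 2.2e-05). MCM7 stood at 6.07, 6.66 and 6.44 after miR-205 and 7.69, 7.82 and 7.72 after scramble, also without overlap between the groups. It fell by 1.35 ± 0.13 (adjusted p = 2.6e-05), and MCM3 by 1.05 ± 0.11 (adjusted p = 3.4e-05). The helicase is loaded by CDC6 and CDT1, which fell by 1.27 and 1.16, and activated with CDC45 and the GINS complex, where CDC45 fell by 1.12 and 3 of 4 GINS subunits fell; GINS4 changed by -0.58, not past the threshold.

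At the fork, PRIM1, POLA1 and POLA2 of the priming polymerase fell, and PRIM2 did not pass the threshold (-0.09). Of the clamp loader, RFC2, RFC3, RFC4 and RFC5 fell by 0.41 to 0.90, and the clamp itself, PCNA, by 0.84 ± 0.11 (adjusted p = 0.00016). RPA3, the smallest subunit of the complex that coats single-stranded DNA, stood at 7.17, 7.68 and 7.50 after miR-205 and 8.56, 8.64 and 8.47 after scramble. It fell by 1.11 ± 0.12 (adjusted p = 4.4e-05), while RPA1, the largest subunit, stood at a change of 0.01. TIPIN, which stabilises paused forks, fell by 0.83 ± 0.09 (adjusted p = 5.2e-05). POLD1, POLD2 and POLD3 of the lagging strand polymerase did not pass the threshold, at -0.29, 0.18 and -0.27. The origin recognition complex was mixed: ORC6 and ORC3 fell by 0.95 and 0.24, and the members that rose, ORC5 (0.61 ± 0.10, adjusted p = 0.00067) and ORC2 (0.32 ± 0.09, adjusted p = 0.02), were named after their values were seen. Without scramble replicate 1, 27 replication genes fell and 2 rose; leaving out miR-205 replicate 1 or 2, or scramble replicate 2 or 3, left 1 rise.

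The enzymes that supply deoxynucleotides fell with them. Of 22 genes of nucleotide supply, 9 fell (40.9%, against 13.3% of all genes) and 2 rose (9.1%, against 10.1%), with a median of -0.25. RRM2, the regulated subunit of ribonucleotide reductase, stood at 7.05, 7.75 and 7.63 after miR-205 and 8.94, 8.76 and 8.75 after scramble. All miR-205 arrays were lower than all scramble arrays, and RRM2 fell by 1.34 ± 0.16 (adjusted p = 8.9e-05). TK1, thymidine kinase, fell by 1.34 ± 0.20, TYMS, thymidylate synthase, by 1.08 ± 0.13, RRM1 by 0.99 ± 0.12 and DUT, which removes dUTP, by 0.61 ± 0.11. PAICS (0.08) and GART (-0.03) of purine synthesis were among the 11 that did not pass the threshold, whereas PPAT of the same pathway rose. The rises were IMPDH1 and PPAT (0.53 and 0.29, named after their values were seen), and without miR-205 replicate 1 or scramble replicate 3 no member of this list rose; without any other array 1 did.

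Mitotic genes fell as well. Of 17 mitotic kinases and members of the chromosomal passenger complex, 16 fell and none rose (median -1.20), of 23 kinesin and spindle genes 20 fell (median -1.20), and of 27 kinetochore and chromosome structure genes 23 fell (median -0.87). AURKB, the kinase of the passenger complex, corrects the attachment of chromosomes to the spindle and stood at 3.29, 3.37 and 3.62 after miR-205 and 4.81, 5.11 and 4.69 after scramble. The groups did not overlap, and AURKB fell by 1.44 ± 0.11 (2.72-fold, adjusted p = 5.1e-06). Its partners BIRC5, known as survivin, and CDCA8, known as borealin, fell by 1.29 and 1.37. NEK2, a kinase of centrosome separation, stood at 3.32, 4.15 and 4.24 after miR-205 and 5.69, 5.57 and 5.45 after scramble. It fell by 1.67 ± 0.20 (adjusted p = 9.6e-05), with replicate 1 the lowest of the miR-205 arrays. PLK1 and AURKA, which drive mitotic entry, fell by 1.64 and 1.10, WEE1, which holds CDK1 inactive, by 1.20 ± 0.12 (adjusted p = 2.2e-05), and CDK1 itself by 0.89.

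Among the spindle genes, TPX2, which activates AURKA on microtubules, stood at 3.83, 5.12 and 4.73 after miR-205 and 6.43, 6.59 and 6.22 after scramble, and DLGAP5, a spindle stabiliser, at 3.51, 4.47 and 3.93 after miR-205 and 5.98, 5.93 and 5.72 after scramble. They fell by 1.86 ± 0.26 (3.62-fold, adjusted p = 0.00027) and 1.91 ± 0.34 (adjusted p = 0.0013). In both, replicate 1 was the lowest miR-205 array and the miR-205 arrays spread more widely than the scramble arrays. PRC1, which bundles the central spindle, fell by 1.45 ± 0.17 (adjusted p = 9.6e-05) and the motor KIF20A by 1.32 ± 0.20 (adjusted p = 0.00056). Of 23 spindle genes, CKAP5, KIF20B and KIF22 did not pass the threshold (-0.30, -0.22 and -0.01).

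Genes of chromosome condensation and attachment fell too. All 7 condensin subunits tested fell, by 0.61 to 1.51. NCAPG, a condensin subunit, stood at 4.14, 4.51 and 4.51 after miR-205 and 5.99, 5.99 and 5.72 after scramble, with no overlap, and fell by 1.51 ± 0.16 (adjusted p = 3.5e-05). NDC80, which binds microtubule ends at the kinetochore, stood at 4.91, 5.12 and 5.37 after miR-205 and 6.72, 6.83 and 6.53 after scramble and fell by 1.56 ± 0.19 (adjusted p = 0.00013). TOP2A, the topoisomerase that untangles sister chromatids, fell by 1.38 ± 0.17 (2.61-fold). The checkpoint genes BUB1 (-1.5 ± 0.17, adjusted p = 8.2e-05), BUB1B, TTK and MAD2L1 fell, and BUB3 did not pass the threshold (-0.39), nor did CENPA, the centromeric histone (-0.10). Without scramble replicate 1, 15 mitotic kinase, 19 spindle and 20 kinetochore genes fell and none rose. By limma's p before adjustment (under 0.05), 16, 20 and 24 members of these 3 lists lay lower after miR-205 and 0 higher, where 19.4% of all genes lay lower and 16% higher.

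Of 23 cyclins, CDC25 phosphatases and genes of anaphase ubiquitination, 19 fell and none rose, with a median of -0.78. CDC20, the activator of the anaphase-promoting complex, stood at 4.37, 5.56 and 5.19 after miR-205 and 6.93, 6.81 and 6.82 after scramble. It fell by 1.81 ± 0.23 (3.51-fold, adjusted p = 0.00014), and UBE2C and UBE2S, the ubiquitin-conjugating enzymes of that complex, fell by 1.40 ± 0.13 and 1.26 ± 0.14. Cyclin A2, CCNA2, stood at 3.97, 4.07 and 4.29 after miR-205 and 5.44, 6.0 and 5.60 after scramble and fell by 1.57 ± 0.17 (adjusted p = 3.8e-05). CCNB1 and CCNB2 fell by 1.31 and 1.60. Among G1 cyclins CCNE2 fell by 1.14, CCND1 by 0.57 and CCND3 by 0.46, whereas CCNE1 stood at 0.30 ± 0.16 (adjusted p = 0.21), with scramble replicate 1 above the miR-205 arrays. By limma's unadjusted p under 0.05, 20 were lower and 0 higher after miR-205 (19.4% and 16% of all genes). Without scramble replicate 1, 15 members of this list fell and 1 rose.

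The regulators above these genes moved in part. FOXM1, the transcription factor of the G2 and M phase programme, stood at 3.04, 3.63 and 3.60 after miR-205 and 5.20, 5.09 and 4.44 after scramble. It fell by 1.49 ± 0.21 (adjusted p = 0.00036), and MYBL2, its partner in the same programme, by 1.08 ± 0.15 (adjusted p = 0.00026). E2F1, the activator of S phase genes, stood low on the scale at 3.26, 3.20 and 3.20 after miR-205 and 3.79, 3.73 and 3.58 after scramble, and fell by 0.48 ± 0.08 (1.39-fold, adjusted p = 0.0014). E2F3 rose by 0.34 ± 0.07 (adjusted p = 0.0056) and E2F6 by 0.37. CDKN1A and CDKN1B, the inhibitors p21 and p27, stood at 0.26 ± 0.12 (adjusted p = 0.14) and -0.29 ± 0.13 (adjusted p = 0.13), and RB1 at 0.03, none past the threshold. In all, 5 of 17 genes of this list fell (29.4%, against 13.3% of all genes) and 2 rose (11.8%, against 10.1%). The median was -0.06. Without miR-205 replicate 2 or 3 or scramble replicate 2 or 3, 1 rose. Among 17 genes of homologous recombination and Fanconi repair, 8 fell and none rose (median -0.41). BRCA1 stood at 3.85, 3.98 and 4.16 after miR-205 and 5.44, 5.19 and 4.96 after scramble and fell by 1.20 ± 0.13 (adjusted p = 3.8e-05), FANCG by 1.42 ± 0.16 and FANCI by 1.14 ± 0.16. By limma's unadjusted p under 0.05, 11 repair genes were lower and 0 higher (19.4% and 16% of all genes).

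Over the 5 replication and mitosis lists together, 136 genes were tested, 109 fell and 2 rose, and the groups did not overlap with miR-205 lower at 114 (20.1% of all genes). Set against the scramble mean of each gene, the median of these 136 genes was -1.06, -0.78 and -0.84 on the miR-205 arrays and 0.06, 0.08 and -0.14 on the scramble arrays. Replicate 1 was thus the lowest miR-205 array and replicate 3 the lowest scramble array, and the array medians of the groups did not overlap. Without miR-205 replicate 1, 95 of the 136 fell and 1 rose, and without scramble replicate 1, 96 fell and 3 rose; without miR-205 replicate 2 or scramble replicate 2 or 3, 1 rose.

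**Figure D2:**
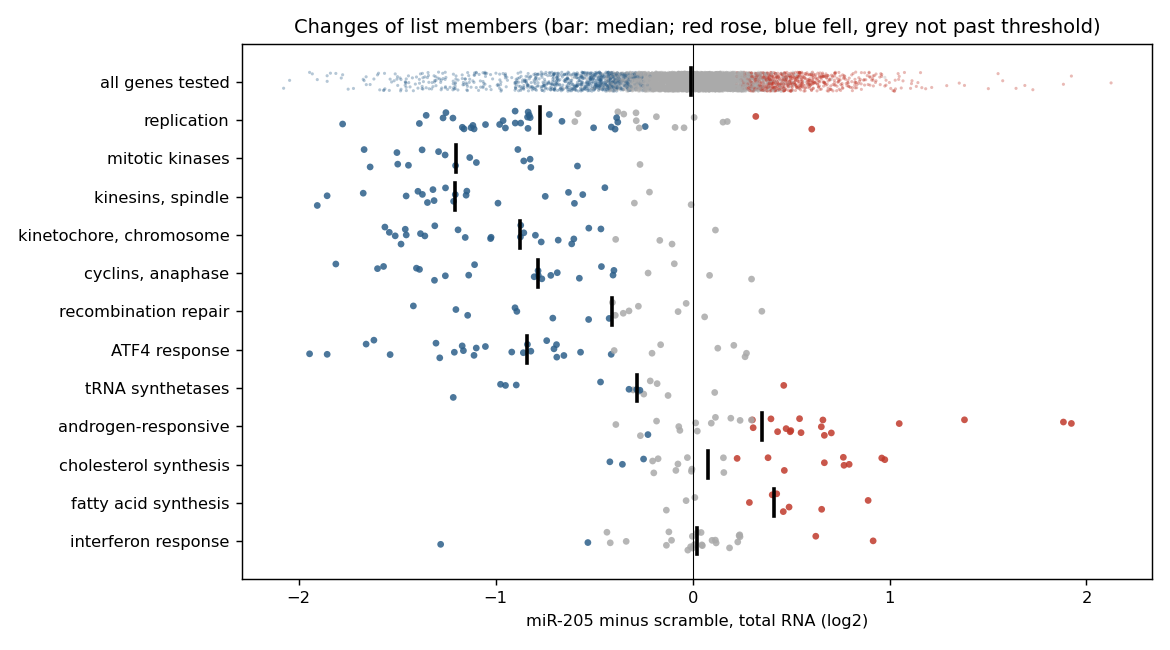
Each point is 1 gene, plotted by its change in total RNA, miR-205 minus scramble (log2); rows are lists of genes, the black bar is the median of a row, and red, blue and grey points rose, fell or did not pass the threshold. The 5 cell cycle rows have medians of -1.20 to -0.78, the ATF4 row -0.84, the androgen-responsive row 0.35 and the top row, all 6782 genes, -0.01.

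The other large group of falls was the ATF4 programme. ATF4 is a transcription factor whose protein accumulates when amino acids are short or the endoplasmic reticulum is stressed, and it raises enzymes that make amino acids, transporters that import them and feedback regulators. Of 31 genes of this programme, 24 fell and none rose, with a median of -0.84, and the same counts were found without scramble replicate 1. By limma's unadjusted p under 0.05, 25 were lower and 1 higher (19.4% and 16% of all genes). Set against the scramble mean, the list median was -0.79, -0.84 and -0.82 on the miR-205 arrays and -0.05, 0.02 and 0.06 on the scramble arrays, a narrower spread than that of the cell cycle lists.

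Among the enzymes, PCK2, the mitochondrial enzyme of gluconeogenesis, stood at 6.85, 6.98 and 6.83 after miR-205 and 8.77, 8.77 and 8.96 after scramble. The arrays of each group lay close together, and PCK2 fell by 1.94 ± 0.10 (3.85-fold, adjusted p = 5.2e-07). ASNS, which makes asparagine, stood at 8.24, 8.50 and 8.62 after miR-205 and 10.02, 10.14 and 10.05 after scramble and fell by 1.62 ± 0.11 (3.07-fold, adjusted p = 1.3e-06). The serine synthesis genes PSAT1, PHGDH and PSPH fell by 1.21, 1.16 and 0.57, and MTHFD2, which carries serine carbon into the folate pool, by 1.11 ± 0.07 (adjusted p = 1.2e-06). Of the transporters, SLC1A5, SLC1A4, SLC3A2 and SLC7A11 fell by 0.82 to 1.30, and SLC7A1 and SLC38A2 did not pass the threshold (-0.40 and 0.21).

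Among the regulators, ATF4 itself fell by 0.86 from a high level, CEBPG, its dimer partner, by 1.17 ± 0.09 (adjusted p = 3.4e-06), and DDIT3 and TRIB3, which act in feedback and cell death, by 1.54 and 1.28. CHAC1, which degrades glutathione, stood at 3.69, 4.48 and 4.02 after miR-205 and 5.54, 6.11 and 6.11 after scramble and fell by 1.86 ± 0.23 (adjusted p = 0.00011). EIF4EBP1, which restrains cap-dependent translation, stood at 6.71, 6.81 and 6.76 after miR-205 and 8.42, 8.41 and 8.43 after scramble, without overlap. It fell by 1.66 ± 0.08 (3.16-fold, adjusted p = 2.4e-07). The members that did not pass the threshold included CTH (0.13), VLDLR (0.27) and ALDH18A1 (0.27).

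Enzymes that charge tRNAs, part of which ATF4 is known to raise, fell in part: 8 of 16 cytosolic synthetases fell and 1 rose, with a median of -0.28. GARS1, for glycine, stood at 9.37, 9.47 and 9.38 after miR-205 and 10.70, 10.51 and 10.65 after scramble and fell by 1.22 ± 0.11 (adjusted p = 1e-05); CARS1, WARS1 and SARS1 fell by 0.98, 0.95 and 0.90. LARS1, for leucine, rose by 0.46 ± 0.11 (adjusted p = 0.0074), a gene named after its value was seen. Chaperones of the endoplasmic reticulum had a median near 0: 6 of 18 fell (33.3%, against 13.3% of all genes) and none rose, with a median of -0.03. The same numbers, 6 lower and 0 higher, had an unadjusted limma p under 0.05 (19.4% and 16% of all genes). CRELD2 (-0.70 ± 0.11), XBP1 (-0.62 ± 0.15) and HERPUD1 (-0.50 ± 0.07) fell, while HSPA5, the main chaperone known as BiP, stood at 11.17, 11.37 and 11.31 after miR-205 and 11.14, 11.20 and 11.15 after scramble, overlapping between the groups (adjusted p = 0.42).

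The promoters of these groups differed in the shares that carry some short sequences. Each promoter window of RefSeq (GRCh38.p14) runs from 250 bases before to 50 bases after the start, and 5717 of the 6782 genes had one. Both strands were searched for an E2F motif (TTTCCCGC, TTTCGCGC, TTTGGCGC or TTTGCCGC), for the CHR element of G2 and M phase genes (TTTGAA), for the box bound by NF-Y (CCAAT) and for the CARE element known from ATF4 targets (TGATGNAA). Each motif was counted apart from the others, and matches may overlap. These 3 promoters are shown because each holds the motif of its group, which is in capitals: E2F for MCM7 (chr7:100101348-100101647, minus strand), CHR for NCAPG (chr4:17810729-17811028, plus strand) and CARE for ASNS (chr7:97872359-97872658, minus strand).

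MCM7: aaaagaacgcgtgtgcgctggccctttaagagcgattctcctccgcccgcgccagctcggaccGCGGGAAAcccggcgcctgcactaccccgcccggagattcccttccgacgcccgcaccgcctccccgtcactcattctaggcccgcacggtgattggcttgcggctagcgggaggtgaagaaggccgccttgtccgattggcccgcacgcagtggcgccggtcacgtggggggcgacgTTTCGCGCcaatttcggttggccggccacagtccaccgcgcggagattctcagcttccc

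NCAPG: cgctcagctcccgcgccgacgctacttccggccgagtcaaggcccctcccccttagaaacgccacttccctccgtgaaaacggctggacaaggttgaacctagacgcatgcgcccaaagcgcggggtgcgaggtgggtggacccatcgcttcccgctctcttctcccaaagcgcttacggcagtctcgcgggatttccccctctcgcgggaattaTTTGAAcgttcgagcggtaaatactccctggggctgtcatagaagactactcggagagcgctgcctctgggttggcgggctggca

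ASNS: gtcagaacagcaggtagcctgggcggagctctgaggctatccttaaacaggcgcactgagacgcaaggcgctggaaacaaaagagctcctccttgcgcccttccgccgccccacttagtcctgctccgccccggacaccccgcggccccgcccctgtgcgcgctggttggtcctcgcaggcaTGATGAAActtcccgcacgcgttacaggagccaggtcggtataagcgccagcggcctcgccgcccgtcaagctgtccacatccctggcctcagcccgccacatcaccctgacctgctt

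The E2F matches in the MCM7 window begin at -187 and -9, the CHR match of NCAPG at -35 and the CARE match of ASNS at -68 from the start. An E2F motif was present in 45.0% of 40 replication promoters and 12.7% of 55 promoters of the mitotic kinase, spindle and kinetochore lists, against 5.8% of the genes tested and 3.3% of all 27305 promoters. The CHR element showed the reverse pattern, at 2.5% of replication promoters and 63.6% of mitotic promoters, against 9.0% of the genes tested and 15.4% of all promoters. The NF-Y box was present in 52.5% and 74.5% of them, against 39.0% and 35.7%. It was also present in 56.0% of ATF4 list promoters and 46.2% of tRNA synthetase promoters. In the androgen-responsive and cholesterol synthesis lists described below it was present in 60.9% and 70.0%. A raised share of this box was thus not particular to the cell cycle lists. The CHR element was present in 26.1% of androgen-responsive and 5.0% of cholesterol synthesis promoters. CARE was found in 20.0% of 25 promoters of the ATF4 list and 38.5% of 13 tRNA synthetase promoters, against 1.6% and 3.7%. Among genes that fell, 9.5% of 787 promoters held an E2F motif and 13.1% the CHR element, and among genes that rose 3.6% and 8.0% of 562. The lists were compiled by function, so these shares describe the lists and were not tested.

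**Figure D3:**
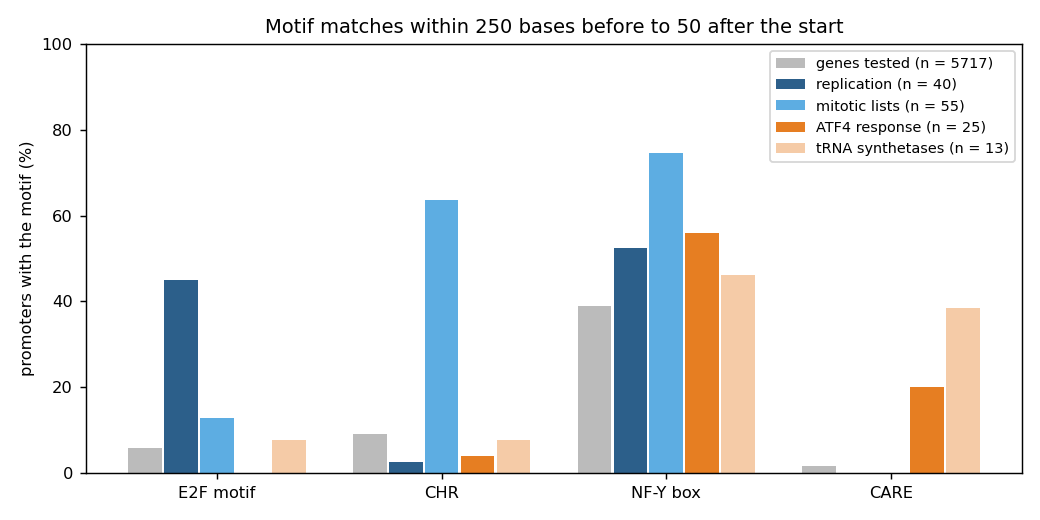
Bars give the share of promoters (%) with at least 1 match to each motif within 250 bases before to 50 after the start, for all genes tested and for 4 groups of lists, with the number of promoters in the legend. The E2F motif stands highest in replication promoters (45.0%), CHR in mitotic promoters (63.6%) and CARE in tRNA synthetase promoters (38.5%).

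Androgen-responsive genes rose. The androgen receptor is the hormone-activated transcription factor on which luminal prostate cells depend, and its targets include the kallikreins, chaperones of steroid receptors and lipid enzymes. Of 30 such genes, 17 rose and 1 fell, with a median of 0.35, against 10.1% rising over all genes. Without scramble replicate 1, 15 rose and 2 fell. FKBP5, an immunophilin that binds steroid receptors and is among the most hormone-sensitive targets, stood at 5.71, 5.79 and 5.43 after miR-205 and 3.66, 3.73 and 3.78 after scramble. The groups did not overlap, and FKBP5 rose by 1.92 ± 0.11 (3.79-fold, adjusted p = 7e-07). MAF, a transcription factor, stood at 7.99, 8.13 and 8.12 after miR-205 and 6.53, 6.15 and 5.92 after scramble and rose by 1.88 ± 0.14 (3.69-fold, adjusted p = 3.3e-06). ELL2, a transcription elongation factor, rose by 1.38 ± 0.20 (adjusted p = 0.0004). The summed signal of the 8 luminal markers given above was also higher after miR-205, but it is led by KLK3 and KLK2, which are on the androgen list too and were the markers that rose. The median change of the 8 was -0.07: TMPRSS2 (-0.27), KRT18 (-0.22), KRT8 (-0.11), SPDEF (-0.07) and HOXB13 (-0.06) had lower means after miR-205, none past the threshold. The part of the markers in the result was not tested.

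Of the secretory products of luminal cells, both kallikreins of the list rose. KLK3, which encodes prostate-specific antigen, stood near the top of the scale at 12.27, 12.26 and 12.11 after miR-205 and 11.60, 11.78 and 11.76 after scramble, with no overlap, and rose by 0.50 ± 0.10 (1.41-fold, adjusted p = 0.004). KLK2 rose by 0.65, NDRG1, an androgen- and hypoxia-responsive gene, by 1.05, PLPP1 by 0.66 ± 0.08 (adjusted p = 0.00013) and SAT1, which acetylates polyamines, by 0.47 ± 0.07 (adjusted p = 0.00051). TMPRSS2 stood at 8.23, 8.23 and 8.20 after miR-205 and 8.20, 8.61 and 8.64 after scramble, overlapping between the groups (adjusted p = 0.13). ACP3, prostatic acid phosphatase, was the member that fell (-0.23 ± 0.07, adjusted p = 0.044, named after its value was seen). Without any 1 of the miR-205 arrays, or without scramble replicate 2 or 3, no member fell. Of 19 coregulators of the receptor, 4 rose and 4 fell, 21.1% each way, against 10.1% and 13.3% of all genes. MED1, the Mediator subunit that contacts nuclear receptors, rose by 0.82 ± 0.15 (adjusted p = 0.0016) and PIAS1 by 0.64 ± 0.14, with PIAS2 (0.43) and the epithelial factor GRHL2 (0.32). NR2C1, an orphan receptor, fell by 1.28 ± 0.16 (adjusted p = 0.00013) and NCOA4 by 0.61 ± 0.08, with CCND1 and the chaperone HSP90AA1 (-0.27).

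Lipid synthesis rose in part. Of 10 fatty acid synthesis genes, 7 rose and none fell (median 0.42; 7 higher and 0 lower by limma's unadjusted p under 0.05, against 16% and 19.4% of all genes), and without scramble replicate 1, 5 rose. ACACA, the enzyme that commits carbon to fatty acids, stood at 9.02, 9.09 and 8.97 after miR-205 and 8.43, 8.35 and 8.33 after scramble. It rose by 0.66 ± 0.09 (1.58-fold, adjusted p = 0.00017), ELOVL6, which lengthens fatty acids, by 0.89 ± 0.13 (adjusted p = 0.00045), and ACLY, which supplies the carbon, by 0.49 ± 0.08. Of 22 cholesterol synthesis genes, 9 rose (40.9%, against 10.1% of all genes) and 3 fell (13.6%, against 13.3%), with a median of 0.08. As many rose and fell after miR-130a, as given below. Without scramble replicate 1, 8 rose and 2 fell. MSMO1, a methylsterol oxidase, stood at 9.37, 9.36 and 9.51 after miR-205 and 8.52, 8.37 and 8.43 after scramble and rose by 0.98 ± 0.09 (adjusted p = 2.2e-05); SQLE, squalene epoxidase, rose by 0.96 ± 0.14 and LSS, the next enzyme of the pathway, by 0.80 ± 0.09. Without scramble replicate 3, 6 of the 22 rose. The 3 that fell, PMVK, TM7SF2 and SC5D (-0.42, -0.36 and -0.25), are enzymes of the same pathway, and were named after their values were seen. None of this list fell without miR-205 replicate 1 or scramble replicate 2, and 1 fell without miR-205 replicate 3 or scramble replicate 3.

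Growth factor signalling genes moved both ways. Of 22 genes of insulin, PI3K and mTOR signalling, 5 rose (22.7%, against 10.1% of all genes) and 3 fell (13.6%, against 13.3%). GHR, the growth hormone receptor, stood at 7.0, 6.65 and 6.99 after miR-205 and 5.46, 5.12 and 5.00 after scramble and rose by 1.69 ± 0.15 (3.22-fold, adjusted p = 1e-05). SOCS2, the feedback inhibitor of that receptor and in none of the lists, stood at 5.75, 5.92 and 6.01 after miR-205 and 4.30, 4.48 and 4.40 after scramble and rose by 1.5 ± 0.09 (2.83-fold, adjusted p = 7.6e-07). PIK3R3, a regulatory subunit of PI3K, rose by 0.81 ± 0.09 (adjusted p = 3.8e-05), and IGF1R by 0.90; the other rises of the list were TSC2 (0.55), which restrains mTOR, and the catalytic subunit PIK3CB (0.35). MLST8, a subunit shared by both mTOR complexes, stood at 5.91, 6.27 and 6.07 after miR-205 and 7.19, 7.40 and 7.54 after scramble and fell by 1.29 ± 0.11 (adjusted p = 9.6e-06), and AKT1 fell by 0.38; the third was EIF4EBP1, described above. RPS6KB2, a kinase downstream of mTOR that is in none of the lists, fell by 1.78 ± 0.14 (3.44-fold, adjusted p = 4.2e-06). Without scramble replicate 1, 9 genes of this list rose, and without miR-205 replicate 1, 2 fell.

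Of 17 genes of ERBB and RAS signalling, 6 rose (35.3%, against 10.1% of all genes) and 3 fell (17.6%, against 13.3%). HRAS, the small GTPase, stood at 6.10, 6.04 and 6.18 after miR-205 and 7.61, 7.83 and 7.68 after scramble, and fell by 1.59 ± 0.11 (3.02-fold, adjusted p = 2e-06). EGFR stood lower on the scale, at 4.43, 3.96 and 4.48 after miR-205 and 3.85, 2.81 and 3.03 after scramble, and rose by 1.06 ± 0.23 (adjusted p = 0.0052), with scramble replicate 1 close below the miR-205 arrays. The RAS pathway inhibitor SPRY1 rose by 0.81 ± 0.13 (adjusted p = 0.00074), the ETS factor ETV1 by 0.60 ± 0.12 and the adaptor SHC1 by 0.53 ± 0.08. The other falls were SPRED2, a RAS pathway inhibitor (-0.49), and ERBB3, described with the candidate targets. Without miR-205 replicate 1, 1 of the 17 fell.

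Genes linked to p53 and FOXO moved both ways. Of 21 p53 targets, 6 rose (28.6%, against 10.1% of all genes) and 3 fell (14.3%, against 13.3%), with a median of 0.06. TNFRSF10B, a death receptor, rose by 1.03 ± 0.10 (adjusted p = 2.2e-05) and ZMAT3 by 0.74 ± 0.13, while GDF15, a stress cytokine, fell from a high level, at 10.22, 10.23 and 10.28 after miR-205 and 11.44, 11.55 and 11.72 after scramble. GDF15 fell by 1.32 ± 0.10 (2.51-fold, adjusted p = 4.2e-06), and with it PMAIP1, known as NOXA (-0.59), and DDB2, of DNA repair (-0.47). Of 21 FOXO-responsive genes, 6 rose (28.6%) and 2 fell; CITED2, which binds the coactivators CBP and p300, rose by 1.02 ± 0.09 (adjusted p = 1.5e-05) and the repressor BCL6 by 0.81 ± 0.11 (adjusted p = 0.00022). The FOXO list's falls were TXNIP (-0.40) and ERBB3; without miR-205 replicate 3, 3 of the list rose and 1 fell, without scramble replicate 1 or 3, 1 fell, and without miR-205 replicate 1, none fell. Of 22 genes of the NRF2 and antioxidant list, 6 fell (27.3%, against 13.3% of all genes) and 2 rose (9.1%, against 10.1%). HMOX1, heme oxygenase, had the largest fall of all genes tested, at 3.00, 3.14 and 2.56 after miR-205 and 4.86, 4.73 and 5.33 after scramble. It fell by 2.08 ± 0.28 (4.22-fold, adjusted p = 0.00022), KEAP1, the NRF2 inhibitor, by 0.77 ± 0.10 and SQSTM1, the autophagy receptor, by 0.68 ± 0.11, while NQO1, a standard NRF2 target, stood at -0.07. The rises were ME1 (0.40) and GSR (0.42), and 1 rise was left without miR-205 replicate 2 or scramble replicate 1.

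Of 20 glycolysis genes 6 rose (30%, against 10.1% of all genes) and none fell, with a median of 0.09. By limma's unadjusted p under 0.05, 6 were higher and 1 lower (16% and 19.4% of all genes), and without scramble replicate 1, 1 fell. The largest rises of this list included ALDOC at 0.71 ± 0.12 and PFKFB2, which raises the activator of glycolysis, at 0.67 ± 0.16. Of 43 genes of oxidative phosphorylation 2 rose, NDUFS1 and ATP5F1A (0.30 and 0.22), and 4 fell, NDUFA8, NDUFS3, UQCRC1 and ATP5F1D, by 0.39 to 0.48 (median -0.01). None of this list rose without miR-205 replicate 1 or 2 or scramble replicate 1 or 3, and 1 rose without miR-205 replicate 3 or scramble replicate 2. Of 29 genes of ribosome biogenesis 2 rose, NCL and NIP7 (0.22 and 0.47), and 2 fell, FBL and WDR74 (-0.35 and -0.41). The rises of that list numbered 0 without miR-205 replicate 3, 4 without scramble replicate 1 and 1 without any other array. For oxidative phosphorylation and ribosome biogenesis, these shares are near or below the 10.1% and 13.3% of all genes.

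Mitochondrial ribosomal proteins gave 11 falls (23.4%, against 13.3% of all genes), by 0.29 to 0.64, and no rise among 47, with a median of -0.15. By limma's unadjusted p under 0.05, 17 were lower and 2 higher, where 19.4% of all genes were lower and 16% higher. Without miR-205 replicate 3, 4 of the 47 fell, and without miR-205 replicate 1, 7 fell. Of 26 proteasome genes 4 fell, PSMB3, PSMB5, PSMB6 and PSMD8, by 0.28 to 0.57, and none rose (9 lower and 0 higher by limma's unadjusted p under 0.05; 4 of 26 is 15.4%), with 2 falls without miR-205 replicate 1 or 3. Of 17 cytosolic and mitochondrial chaperones 2 fell, HSP90AA1 and HSPB1 (-0.37), and none rose (3 lower and 0 higher by limma's unadjusted p under 0.05). The 11.8% that fell is near the 13.3% of all genes. Without miR-205 replicate 3 or scramble replicate 2, 1 of the 17 fell. Of 30 autophagy and lysosome genes 7 fell (23.3%, against 13.3% of all genes) and 4 rose (13.3%, against 10.1%), with a median of -0.10. GABARAP and GABARAPL1, related proteins of the autophagosome membrane, went opposite ways, at -0.45 and 0.65; the other rises were LAMP1, ATG12 and ATP6V1A, and without miR-205 replicate 1 or 3 or scramble replicate 3, 2 of the 30 rose. Of 12 histone genes H2BC21 rose (1.57) and 4 fell, H2AX (-0.90), H1-10, H2AZ1 and H2BC12. That is 8.3% rising and 33.3% falling, against 10.1% and 13.3% of all genes. With 1 array left out, 1 or 2 of the 12 fell, and without scramble replicate 2, 2 rose.

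Small lists of 12 to 21 genes follow. SMURF2 and ID2, of 21 genes of TGF-beta and BMP signalling, rose (0.42 and 0.91) and none fell (8 higher and 1 lower by limma's unadjusted p under 0.05, against 16% and 19.4% of all genes), and the rises numbered 0 to 4 when 1 array was left out. Of 14 immediate early genes JUN and ATF3 fell (-0.52 and -0.70) and none rose (3 lower and 1 higher by limma's unadjusted p under 0.05; 19.4% and 16% of all genes). In that list 1 fell without miR-205 replicate 2 or scramble replicate 1 or 3, and 1 rose without miR-205 replicate 2. Of 12 genes of the BCL2 family BNIP3 and BNIP3L, which tag mitochondria for removal, rose (0.44 and 0.70), and BAD and PMAIP1 fell (-0.51 and -0.59). That is 16.7% each way, against 10.1% of all genes rising and 13.3% falling.

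Candidate direct targets moved both ways. A list of 54 genes that have been linked to miR-205 as targets was compiled from memory of the field, and the reports behind it were not checked here. Of these, 48 are on the array and 32 passed the filter; 8 fell (25%) and 7 rose (21.9%), with a median of 0.01, against 13.3%, 10.1% and -0.01 over all genes. ZEB1 and ZEB2 lay below the filter. LYN, a kinase of the SRC family, stood at 3.94, 4.05 and 4.05 after miR-205 and 4.86, 5.01 and 4.85 after scramble and fell by 0.90 ± 0.13 (1.86-fold, adjusted p = 0.00042). HMGB3, a chromatin protein, stood at 5.06, 5.07 and 5.07 after miR-205 and 5.82, 5.85 and 5.66 after scramble and fell by 0.71 ± 0.13 (adjusted p = 0.0018). E2F1 is also on this list, as is TXNRD1, thioredoxin reductase (-0.52 ± 0.10, adjusted p = 0.0023).

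ERBB3, the receptor for neuregulins, stood at 7.34, 7.40 and 7.50 after miR-205 and 7.72, 7.80 and 7.72 after scramble, without overlap. It fell by 0.34 ± 0.09 (1.26-fold, adjusted p = 0.014), and by 0.30 without miR-205 replicate 1 (adjusted p = 0.058). VEGFA, the vascular growth factor, fell by 0.42 ± 0.13 (adjusted p = 0.032), a call that ended on leaving out miR-205 replicate 1 or 2 or any scramble array, at changes of -0.45 to -0.33 (adjusted p = 0.057 to 0.13). RAP2B, a RAS-related GTPase, fell by 0.34 ± 0.08, and HMGB1 by 0.22 ± 0.07, a call that ended on leaving out any 1 of the 6 arrays, at changes of -0.23 to -0.21 (adjusted p = 0.081 to 0.12). On the other side, CDC42EP3, an effector of the GTPase CDC42, stood at 6.98, 6.89 and 7.09 after miR-205 and 5.41, 5.23 and 5.38 after scramble and rose by 1.64 ± 0.10 (3.12-fold, adjusted p = 7.7e-07). DSC2, a desmosomal cadherin, rose by 0.83 ± 0.11 (adjusted p = 0.00027), MED1 as above, LAMC1, a laminin chain, by 0.78 ± 0.14 and NOTCH2 by 0.59 ± 0.13. EZR, which links the cortex to the membrane, rose by 0.37, a call that ended without miR-205 replicate 1 or 3 or scramble replicate 2 (0.29 to 0.35, adjusted p = 0.07 to 0.088). ZNF451 rose by 0.39, which ended without miR-205 replicate 2 or scramble replicate 3 (0.37 and 0.35, adjusted p = 0.05 and 0.061). Without miR-205 replicate 1, 5 of the 32 fell.

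Of 20 genes of the microRNA machinery, 3 rose and 3 fell. That is 15% each way, near the 10.1% and 13.3% of all genes. DICER1, which cuts the hairpin to the mature duplex, stood at 9.14, 8.84 and 9.10 after miR-205 and 8.49, 8.03 and 8.31 after scramble and rose by 0.75 ± 0.12 (adjusted p = 0.00055), whereas its partner TARBP2 fell by 0.75 ± 0.15 (adjusted p = 0.0034). CNOT6, a deadenylase, and TUT7, a uridylyltransferase, rose by 0.47 and 0.83, and the decapping enzyme DCP2 and the DICER1 partner PRKRA fell by 0.56 and 0.40. Of 23 genes of epithelial junctions and the mesenchymal transition, 5 rose (21.7%) and 2 fell (8.7%), with a median of 0.06. The tight junction scaffold TJP1 stood at 9.65, 9.56 and 9.60 after miR-205 and 8.86, 8.80 and 8.58 after scramble and rose by 0.86 ± 0.11 (adjusted p = 0.00015), and the desmosomal cadherin DSG2 rose by 0.79 ± 0.10 (adjusted p = 0.00011). The other rises were DSC2, LAMC1 and GRHL2. The epithelial splicing factor ESRP1 fell by 0.81 ± 0.14 (adjusted p = 0.00098) and the tight junction protein OCLN by 0.40, with 1 fall left without miR-205 replicate 1 or 3 or scramble replicate 1 or 3. CDH1, E-cadherin, stood at -0.07.

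The 15 largest rises and 15 largest falls among genes without overlap ranged from 1.16 to 2.13 and from -1.67 to -2.08. Of the 30, 11 are members of the cell cycle, ATF4 or androgen lists and 15 are in none of the lists. ANKRD46, an ankyrin repeat protein, had the largest rise, at 6.59, 6.27 and 6.54 after miR-205 and 4.45, 4.32 and 4.24 after scramble. It rose by 2.13 ± 0.13 (4.36-fold, adjusted p = 8.5e-07). SEMA6A, an axon guidance ligand, rose by 1.73 ± 0.17, H2BC21, a histone gene expressed outside S phase, by 1.57 ± 0.10, F5, coagulation factor V, by 1.55 ± 0.14 and SLC1A1, a glutamate transporter, by 1.16 ± 0.13. Among the falls, IFT27, a subunit of intraflagellar transport in cilia, stood at 3.24, 3.72 and 3.67 after miR-205 and 5.46, 5.56 and 5.76 after scramble and fell by 2.05 ± 0.15 (4.13-fold, adjusted p = 3.2e-06). TRAM1, a component of the translocation channel of the endoplasmic reticulum, stood at 6.63, 7.04 and 6.85 after miR-205 and 8.83, 8.75 and 8.74 after scramble and fell by 1.93 ± 0.10 (3.81-fold, adjusted p = 5.2e-07). Other probe sets of TRAM1 changed less, by -0.93 and -0.84. SDC4, a cell surface proteoglycan, fell by 1.84 ± 0.15, RPL26L1, a ribosomal protein paralog, by 1.75 ± 0.11 and SLC25A1, the mitochondrial citrate carrier, by 1.72 ± 0.12. RPL26L1 has a near-identical relative, RPL26, and its probe set may read both. Of the 30, 19 were tested under all 20 other settings and kept their direction and call in each; the other 11, which include FKBP5, NEK2 and IFT27, were not tested among genes with a mean of at least 5 and kept both in the remaining 19.

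**Figure D4:**
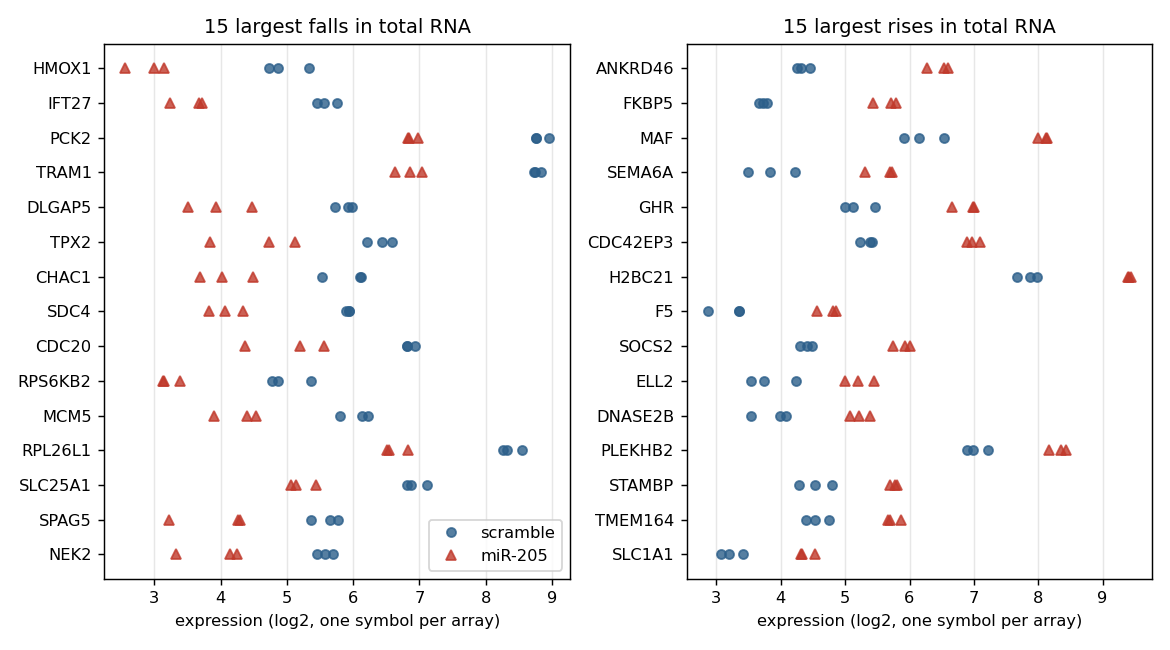
Expression (log2) of the 15 genes with the largest falls (left) and the 15 with the largest rises (right) is plotted with 1 symbol per array, circles for the 3 scramble arrays and triangles for the 3 miR-205 arrays. In no row do circles and triangles overlap; FKBP5 moves from about 3.7 to 5.6 and PCK2 from 8.8 to 6.9.

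The other microRNAs were set against the same 3 scramble arrays, so the 3 comparisons share their controls, and miR-130a and miR-203 were normalized in other runs, which cannot be told apart from the microRNA. After miR-130a 15.9% of genes rose and 13.3% fell, and after miR-203 19.8% rose and 19.8% fell. Over the 136 replication and mitosis genes, the median change was -0.87 after miR-205 (109 fell, 2 rose), 0.52 after miR-130a (68 rose, 2 fell) and -0.42 after miR-203 (61 fell, 4 rose). Compared directly across runs, 125 of them were lower after miR-205 than after miR-130a and 1 higher (background 21.9% lower), and 73 were lower and 4 higher than after miR-203 (background 23.2% lower). AURKB differed by -1.81 ± 0.11 from miR-130a (adjusted p = 2.3e-07) and by -0.85 ± 0.11 from miR-203 (adjusted p = 0.00011).

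The ATF4 list was low after each: its median was -0.84 after miR-205, -0.72 after miR-130a (23 fell) and -0.66 after miR-203 (23 fell, 1 rose). ASNS changed by -1.62, -1.51 and -1.13, CHAC1 by -1.86, -1.82 and -1.60, and PCK2 by -1.94, -1.55 and -1.80. In the direct comparison 9 of 31 genes were lower and 3 higher after miR-205 than after miR-130a (background 21.9% lower and 16.9% higher). Against miR-203, 12 were lower and 3 higher (background 23.2% lower and 18.6% higher). EIF4EBP1 was among those lower, by -0.88 ± 0.08 against miR-130a (adjusted p = 3.4e-06) and -1.05 ± 0.08 against miR-203 (adjusted p = 8.6e-07). Of the 16 tRNA synthetases, 8 fell and 1 rose after miR-205 (median -0.28), and 8 fell and 2 rose after miR-130a (median -0.23). After miR-203, 10 fell and none rose (median -0.30). Directly compared, 4 were lower and 1 higher after miR-205 than after miR-130a, and 5 lower and 3 higher than after miR-203. The scramble arrays are common to these changes, and the direct comparisons do not use them.

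Androgen-responsive genes had a median of 0.35 after miR-205, 0.17 after miR-130a and -0.32 after miR-203. Of the 30, 23 were higher after miR-205 than after miR-203, with 1 lower (background 18.6% higher and 23.2% lower), and 10 were higher and 4 lower than after miR-130a (background 16.9% higher and 21.9% lower). After miR-130a itself 11 of the 30 rose and 2 fell. KLK2 changed by 0.65, 0.09 and -1.54, and differed by 2.20 ± 0.12 between miR-205 and miR-203 (adjusted p = 8.7e-08). FKBP5 changed by 1.92, 1.75 and -0.77. MAF stood apart from both others, at 1.88, 0.20 and -0.25, with a difference of 1.69 ± 0.14 from miR-130a (adjusted p = 2.3e-06) and 2.13 ± 0.14 from miR-203 (adjusted p = 3.1e-07). Of the 22 cholesterol synthesis genes, 9 rose and 3 fell after miR-130a (median 0.15), and 1 rose and 10 fell after miR-203 (median -0.27). Directly compared, 4 were higher and 7 lower after miR-205 than after miR-130a. Against miR-203, 14 were higher and 2 lower.

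Interferon response genes, which cells raise on sensing viral or foreign nucleic acid, differed between the microRNAs. Of 27 tested, 2 rose and 2 fell after miR-205 (median 0.02), whereas 26 rose after miR-130a (median 3.25) and 22 after miR-203 (median 2.05). The shares after miR-205, 7.4% each way, lay below the 10.1% and 13.3% of all genes. IFIT1 stood at 5.64, 5.82 and 5.60 after miR-205 and 4.69, 4.75 and 4.87 after scramble and rose by 0.92 ± 0.09 (1.89-fold, adjusted p = 3.2e-05), against 6.93 after miR-130a and 5.17 after miR-203. IFI6 rose by 0.63 ± 0.10 (adjusted p = 0.00059), and IFI35 fell by 1.28 ± 0.20 (adjusted p = 0.00056) and ISG20 by 0.53. The falls numbered 1 without miR-205 replicate 1 and 4 without miR-205 replicate 2. All 27 were lower after miR-205 than after miR-130a in the direct comparison, and 25 were lower than after miR-203.

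**Figure D5:**
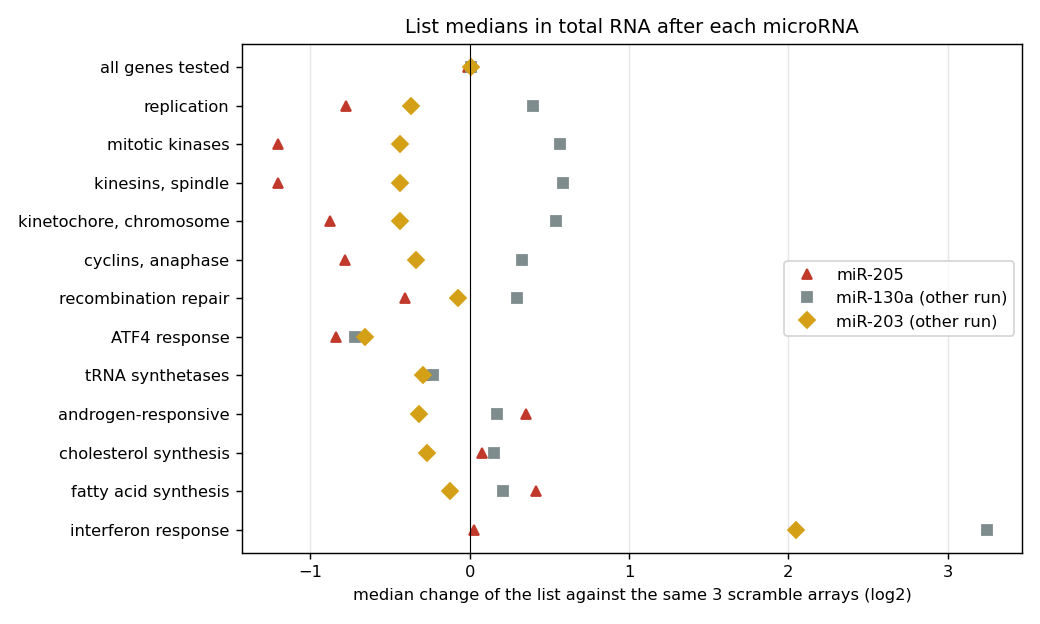
Symbols give the median change (log2) of each list of genes in total RNA against the same 3 scramble arrays, after miR-205 (triangles), miR-130a (squares) and miR-203 (diamonds). The ATF4 medians lie together at -0.84 to -0.66, the cell cycle medians are below 0 after miR-205 and miR-203 and above 0 after miR-130a, and the interferon medians are 0.02, 3.25 and 2.05.

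RNA bound to AGO2 was measured in the same normalization run. In a fit over all 24 arrays, 21.7% of genes had a change in total RNA that lay above the change in AGO2-bound RNA and 21.1% one that lay below it. In AGO2-bound RNA itself, 23.1% of genes were higher and 27.8% lower after miR-205. Some of the largest changes in total RNA had the opposite sign in AGO2-bound RNA. SLC25A1 fell by 1.72 in total RNA and changed by 3.56 in AGO2-bound RNA (adjusted p = 3.9e-13), IFT27 by -2.05 and 2.88 (adjusted p = 4.6e-14), and TRAM1 by -1.93 and 2.53 (adjusted p = 7.7e-15). HRAS changed by -1.59 and 3.19 and MLST8 by -1.29 and 3.76. The median change in AGO2-bound RNA was -0.62 over the 136 replication and mitosis genes and -0.57 over the ATF4 list, against -0.06 over all genes, so both lists had medians below 0 in either kind of RNA. Single members differed: RPA3 changed by 5.93 and EIF4EBP1 by 1.54 in AGO2-bound RNA. STAMBP, a deubiquitinase, rose by 1.21 in total RNA and changed by -2.65 in AGO2-bound RNA (adjusted p = 6e-14).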

How the data were processed

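The authors deposited 1 log2 value for each probe set and array. GCRMA, RMA and R 2.9.0 are listed, without an order, in the submitters' processing notes. The 22277 probe sets on 24 arrays span 2.34 to 14.49. No step was repeated. Of them, 19064 carried 1 gene symbol, giving 11963 genes (1 probe set each); 6782 had a mean of at least 2.85, the median of all probe sets. For arrays no depth applies; 3 per group limit the precision.

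Linear models were fitted in limma 3.58.1 (lmFit, eBayes; R 4.3.3) to the 12 total RNA arrays, or to all 24 for the AGO2 comparison. The genes named were, each way, the 15 with the largest change and no overlap, up to 5 members per list of smallest p, all measured reported targets, KLK3 and ERBB3; members of a described complex are also given. The comparison and all gene lists were chosen with earlier results of these data known. Same-numbered arrays did not deviate together (correlations of -0.05, 0.05 and -0.10), and the labels state no pairing. These correlations cannot exclude one. On simulated data with 200 changed genes among 6782, for this comparison, 82.1%, 94.0% and 97.0% of 1.5-, 2- and 4-fold changes were recovered, with 5 false calls. The simulated noise was independent between genes and arrays, without array-wide effects, so the false calls do not measure those in the real arrays. Alternatives changed the filter, probe set, scaling, prior, array weights, arrays fitted, replicate block, threshold and each array left out.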

Additional observations from a re-analysis of the deposited data

Results flagged for a closer look

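The effect of miR-205 was compared between total RNA and AGO2-bound RNA for the 30 largest changes, by a limma interaction term over the 24 arrays, with the Benjamini-Hochberg adjusted p over 6782 genes under 0.05. Of the 30, 24 differed, against 21.7% and 21.1% of all genes with a difference above and below 0. The 30 genes were chosen for a large change in total RNA, which is one term of this difference, so its direction is largely set by the choice and the counts and values are a description. Values are the change in total RNA minus the change in AGO2-bound RNA (log2 ± SE). For the 15 rises the difference was above 0: STAMBP 3.87 ± 0.20, GHR 2.44 ± 0.34, F5 2.38 ± 0.30, ANKRD46 2.26 ± 0.27, H2BC21 2.12 ± 0.18, PLEKHB2 1.97 ± 0.19, TMEM164 1.93 ± 0.23, FKBP5 1.76 ± 0.17, SLC1A1 1.45 ± 0.23, SEMA6A 1.44 ± 0.34, DNASE2B 1.21 ± 0.28, MAF 1.20 ± 0.31, CDC42EP3 1.06 ± 0.17, SOCS2 1.04 ± 0.17 and ELL2 0.99 ± 0.32.

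For 9 of the 15 falls it was below 0: SLC25A1 -5.28 ± 0.29, IFT27 -4.92 ± 0.21, TRAM1 -4.46 ± 0.17, SDC4 -2.57 ± 0.26, RPL26L1 -2.37 ± 0.20, NEK2 -2.21 ± 0.42, RPS6KB2 -1.90 ± 0.24, SPAG5 -1.14 ± 0.43 and MCM5 -1.05 ± 0.37. In AGO2-bound RNA, which the choice did not use, SLC25A1, IFT27, TRAM1, SDC4 and RPL26L1 rose, with adjusted p from 7.7e-15 to 0.0019. HMOX1, PCK2, DLGAP5, TPX2, CHAC1 and CDC20 did not pass this test. With 3 arrays per group, no array was tested for standing apart within its group.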

How the results depend on the processing

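Over 20 other settings, 118 of 183 named genes that rose or fell kept their call wherever they were tested, 137 leaving out both stricter thresholds, and none of the 183 changed sign. At a mean of at least 5, 30 of the 183 were not tested; of the 153 tested in every setting 94 kept their call. The number of genes changed, risen and fallen was 980, 406 and 574 with 24 arrays in the fit, 893, 355 and 538 at an adjusted p under 0.01, and 640, 227 and 413 at 1.5-fold or more. Fitted to the 6 compared arrays alone, it was 1230, 523 and 707. With the replicate number as a block (replicate block) in a fit of the 6 arrays it was 931, 369 and 562. Whether the replicate numbers pair the arrays is not known. The block in the 12-array fit gave 679 risen and 877 fallen. Leaving out 1 array gave 1130 to 1483 genes changed, 481 to 705 risen and 648 to 809 fallen. Among genes with a mean of at least 5, 9 of 9 mitotic kinases, 10 of 12 spindle and 11 of 13 kinetochore genes fell. Androgen-responsive rises numbered 11 with 24 arrays and 8 at 1.5-fold or more, where 2 fatty acid genes rose. The epithelial median became -0.0072 and DUSP1 0.10 with the mean of probe sets; the ER chaperone median became 0.0049 and RFX7 0.011 with median centring. Leaving out 1 array moved CDK14 from -0.12 to 0.11, RFX7 from -0.065 to 0.060 and SLC19A1 from -0.017 to 0.12. The cause of these shifts was not tested beyond the construction of each setting. Of 91 other probe sets of the named changed genes, 90 had the same sign, and the exception was WDR74. The size of a change could differ. Another probe set gave 0.49 against 1.06 for EGFR, 0.21 against 0.78 for LAMC1 and 0.24 against 0.81 for BCL6. Larger changes were seen for DSC2 (1.42 against 0.83) and RRM2 (-1.67 against -1.34). The search for seed matches was not run. Signal near the floor compresses changes of dim genes.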
